A study of Homo sapiens with 9 samples.

Results

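With earlier results of these data known, a set of 9 genes of the acute phase and complement systems was chosen by name. The genes are SAA1, SAA2, CFB, C3, C1R, C1S, CFI, CD55 and CD59. They are 9 of the 16366 genes of the deposited table, and all 9 were found under these symbols. The libraries come from Cal-27, an established line of human tongue squamous carcinoma cells. One group of cells was co-cultured with exosomes from cancer-associated fibroblasts (CAF exosomes) and another with hOMF exosomes, each for 48 h, and a control group has no further description. The labels leave the abbreviation hOMF unexplained and spell it in more than one way. Each group has 3 replicate samples, and poly(A) RNA was sequenced. No label says whether the replicates came from separate cultures, so p-values measure a spread between samples that may be technical only.

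The acute phase response is the change in secreted proteins that follows infection or injury, made mostly by the liver and also by epithelia. Interleukin 6 acts through STAT3, and interleukin 1 and tumour necrosis factor act through NF-kB, to raise the transcription of its genes. Complement is a cascade of plasma proteases that deposits C3 fragments on surfaces and can end in the membrane attack complex. C1r and C1s are the proteases that start its classical pathway, factor B forms the protease of the alternative pathway, and factor I cleaves deposited C3 fragments. CD55 and CD59 are membrane proteins that protect a cell from complement on its own surface. Squamous epithelial cells can transcribe many of these genes themselves.

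Values per gene are TMM-scaled CPM unless FPKM is named. CPM is the count as a rate per library total, and TMM, the trimmed mean of M values, adjusts that total. FPKM, the authors' fragments scaled by transcript length and depth, is used wherever levels of different genes are compared. Libraries held 11185672 to 12779101 expected counts. Replicates lay farther apart than counting noise allows, and their chi-square per degree of freedom was 3.08 to 11.09. On the first principal component of all tested genes the 6 exosome libraries lay between -16.6 and -8.38 and the 3 control libraries between 18.8 and 29.8. The controls lay at both ends of the second component, control replicate 1 at 16.5 and control replicate 3 at -17.9, with the exosome libraries between -10.7 and 9.7. Control replicate 3 also stood apart in the leukocyte markers PTPRC and LYZ. It had 1.67 FPKM of PTPRC against at most 0.02 in the other 8 libraries, and 2.32 FPKM of LYZ against at most 0.46. Its CD14 (5.19 FPKM), CD68 (22.59 FPKM) and CSF1R (1.95 FPKM) lay within the range of the other libraries, and its MS4A1 was at 0. The called members are also given without control replicate 3.

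All 9 genes are protein coding. In the human GENCODE 29 annotation of GRCh38, SAA1 and SAA2 lie on chromosome 11, SAA1 at 18266174 to 18269977 on the plus strand and SAA2 at 18239223 to 18248643 on the minus strand, 17530 bases apart. C1R, at 7080199 to 7092607 on the minus strand of chromosome 12, and C1S, at 6988259 to 7071032 on the plus strand, are 9166 bases apart. CFB lies at 31945650 to 31952084 on the plus strand of chromosome 6, and C3 at 6677704 to 6730562 on the minus strand of chromosome 19. CFI lies at 109740694 to 109802179 on the minus strand of chromosome 4. CD55 lies at 207321376 to 207386804 on the plus strand of chromosome 1, and CD59 at 33703010 to 33736491 on the minus strand of chromosome 11. Annotated exons overlap a protein-coding neighbour on the same strand at CFB (C2 and AL645922.1), C1R (C1RL), C1S (EMG1), CFI (AC126283.2), CD59 (AL049629.2) and SAA2 (the SAA2-SAA4 readthrough gene). The sources used here do not give the authors' own annotation.

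The bases just before the start sites of CFB and C1R are shown because CFB was the member that fell with hOMF exosomes and C1R was one of those that rose with CAF exosomes. The RefSeq promoter table of GRCh38.p14 had an entry for 5 of the 9 members (CFB, C1R, CFI, CD55 and CD59) and none for SAA1, SAA2, C3 or C1S. Each run is the 250 bases before the start annotated by RefSeq, 5′ to 3′ on the gene's own strand. The runs lie at chr6:31945845-31946094 (plus strand) for CFB, and at chr12:7092446-7092695 and chr12:7091894-7092143 (both minus strand) for the C1R starts. These starts differ from the GENCODE 29 gene bounds given above. By those bounds the runs of CFB and of C1R start 2 lie inside the gene, and that of C1R start 1 lies partly inside. Capitals mark matches on either strand to TTCNNNGAA (STAT), GGGNNNNNCC (NF-kB), TTTCNNTTTC (the core of the interferon-stimulated response element) or TATAAA (the box bound by TBP, the TATA-binding protein).
CFB: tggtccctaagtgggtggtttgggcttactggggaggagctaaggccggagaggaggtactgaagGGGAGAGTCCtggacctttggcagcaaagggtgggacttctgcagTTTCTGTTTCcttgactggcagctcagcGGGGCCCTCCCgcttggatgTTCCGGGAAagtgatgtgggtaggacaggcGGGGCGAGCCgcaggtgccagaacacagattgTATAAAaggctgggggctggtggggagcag
C1R start 1: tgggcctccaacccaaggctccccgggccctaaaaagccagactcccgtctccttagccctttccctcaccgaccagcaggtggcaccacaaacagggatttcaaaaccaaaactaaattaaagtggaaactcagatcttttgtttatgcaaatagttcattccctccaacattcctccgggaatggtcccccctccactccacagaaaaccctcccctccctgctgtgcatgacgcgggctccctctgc
C1R start 2: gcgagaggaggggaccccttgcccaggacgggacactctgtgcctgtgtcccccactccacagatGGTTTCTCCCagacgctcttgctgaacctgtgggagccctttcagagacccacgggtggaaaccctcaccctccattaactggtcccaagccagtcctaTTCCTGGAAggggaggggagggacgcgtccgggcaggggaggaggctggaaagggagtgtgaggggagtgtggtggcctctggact
The CFB run holds 1 STAT match from -92 to -84 and an interferon-type match from -140 to -131, counted back from the start. Its 4 NF-kB matches begin at -185, -112, -111 and -62, and those at -112 and -111 overlap in all but 1 base at each end. Its TATA match runs from -30 to -25. Start 1 of C1R held no match to any of these letters, and start 2 held a STAT match from -86 to -78 and an NF-kB match from -185 to -176. Among 35116 promoters of the same length, 6.6% hold the STAT letters, 54.4% the NF-kB letters, 3.0% the interferon-type letters and 10.7% the TATA letters. Members that were not called held such letters too. CD59 had a STAT match before starts 1 and 2 and NF-kB matches before starts 2 and 4, CD55 had an NF-kB match, and CFI had no match. A match describes letters only, and no binding was measured.

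The members spanned a wide range of levels in Cal-27 cells. By mean FPKM over the 9 libraries, SAA1 was first of the members at 1169 and ranked 87 among 16366 genes. C3, the central complement component, followed at 426 FPKM, then CFB at 138, C1R at 132, C1S at 81.0, CD55 at 63.5, SAA2 at 62.4 and CD59 at 56.4 FPKM. CFI was far below them at 0.699 FPKM, rank 11780. SAA1 exceeded C3 in FPKM in 9 of 9 libraries, C3 exceeded CFB in 9 of 9, C1R exceeded C1S in 9 of 9 and C1S exceeded CD55 in 9 of 9. The order of close neighbours in FPKM differed between groups. CFB exceeded C1R in 0 of 3 CAF exosome, 0 of 3 hOMF exosome and 3 of 3 control libraries. CD55 exceeded SAA2 in 0 of 3 CAF exosome, 1 of 3 hOMF exosome and 3 of 3 control libraries. SAA2 exceeded CD59 in 3 of 3 CAF exosome, 3 of 3 hOMF exosome and 1 of 3 control libraries.

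The SAA genes differ from the other members in how their reads were assigned. RSEM shares a read that fits several genes among them, which leaves fractional expected counts. A value was called fractional when it lay more than 0.001 from a whole number. SAA1 was fractional in 9 of 9 libraries (100%) and SAA2 in 8 of 9 (88.9%), the exception being CAF replicate 3 with 381 counts. Together 17 of the 18 SAA1 and SAA2 values (94.4%) were fractional, against 0 of 63 values of the other 7 members and 12580 of 147294 values (8.5%) of all genes. The SAA2-SAA4 readthrough and SAA4, which encodes the constitutive serum amyloid A, were fractional in 9 of 9 libraries each. The part behind the decimal point was small beside the counts, at 0.0152% of all SAA1 counts and 0.1555% of all SAA2 counts, and larger for SAA2-SAA4 (1.61%) and SAA4 (2.02%). That part is not the number of shared reads, which is not analysed here.

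Annotated transcripts of SAA1 and SAA2 were alike in sequence: 507 of 533 aligned bases (95.1%) were identical, and the longest identical run was 186 bases. SAA2 and SAA2-SAA4 shared a run of 269 bases. The 4 SAA genes summed to a whole number to within 0.05 in 9 of 9 libraries. Values for SAA1 and SAA2 one by one are therefore uncertain in how reads were divided between them, and the sum does not depend on that division. Of the sum, SAA1 took 89.27% to 90.65% in CAF exosome libraries, 89.39% to 89.78% in hOMF exosome libraries and 90.93% to 91.92% in controls, lower in all 6 exosome libraries than in all controls. SAA2 took 9.04%, 7.62% and 9.06% in CAF exosome libraries, 8.8%, 8.86% and 8.67% in hOMF exosome libraries and 8.11%, 7.1% and 7.77% in controls. The SAA2 share was higher in all 3 hOMF libraries than in all controls, and the CAF range overlapped the control range through CAF replicate 2.

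**Figure D1:**
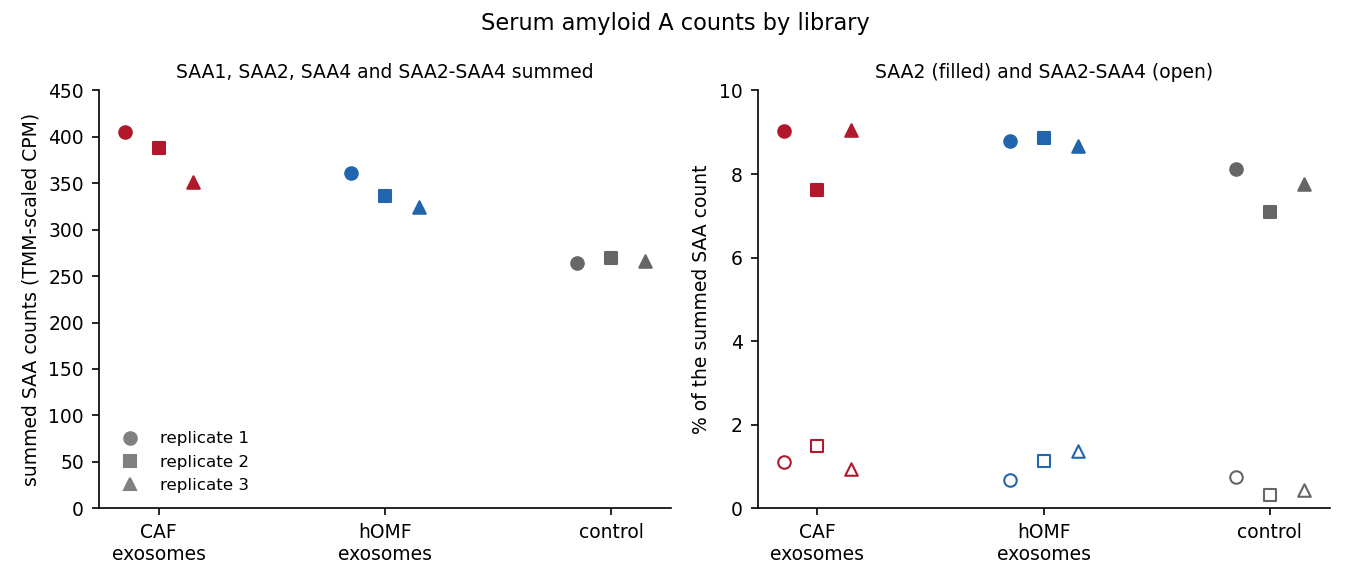
Left, the summed count of SAA1, SAA2, SAA4 and SAA2-SAA4 in TMM-scaled CPM, 1 point per library; right, the percent of that sum assigned to SAA2 (filled) and to SAA2-SAA4 (open). The sums were 351 to 405 with CAF exosomes, 325 to 361 with hOMF exosomes and 264 to 269 in controls, and the shares of SAA2 lay between 7.1% and 9.06% in all libraries.

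With CAF exosomes, SAA1, SAA2, C1R and C1S rose against control, and CFB, C3, CFI, CD55 and CD59 were not called. The SAA genes were about 1.41 (SAA1) and 1.6 (SAA2) times control, and C1R and C1S were 1.22 and 1.25 times control. With hOMF exosomes, SAA1 and SAA2 rose and CFB fell. No member was called between CAF exosomes and hOMF exosomes by edgeR's quasi-likelihood test with Benjamini-Hochberg adjustment over 12470 genes. Both comparisons with control use the same 3 control libraries. In bulk samples, fewer cells of a type and less RNA per cell cannot be told apart.

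SAA1 encodes the main acute phase serum amyloid A. Its CPM was 362, 352 and 313 in CAF exosome libraries, 324, 300 and 292 in hOMF exosome libraries, and 240, 247 and 243 in controls. All 6 exosome libraries were above all 3 controls, while the CAF and hOMF ranges overlapped. The log2 fold change was 0.49 (SE 0.07, adjusted p = 0.000386, edgeR) for CAF exosomes and 0.33 (SE 0.07, adjusted p = 0.00492) for hOMF exosomes, both against control. For CAF against hOMF exosomes it was 0.17, with a 95% interval of 0.01 to 0.32 and an adjusted p of 0.611 (edgeR).

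SAA2, its close relative beside it on chromosome 11, had 36.7, 29.6 and 31.8 CPM in CAF exosome libraries, 31.7, 29.7 and 28.2 CPM in hOMF exosome libraries and 21.5, 19.1 and 20.7 CPM in controls. Again every exosome library was above every control. The log2 fold changes against control were 0.68 (SE 0.10, adjusted p = 0.000325, edgeR) with CAF exosomes and 0.55 (SE 0.10, adjusted p = 0.00101) with hOMF exosomes. CAF exosome libraries differed from hOMF exosome libraries in SAA2 by 0.13, with a 95% interval of -0.07 to 0.33.

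Because the division of reads among these genes is uncertain, the 4 SAA genes were also summed and refitted as 1 gene. The sum was 405, 388 and 351 CPM with CAF exosomes, 361, 336 and 325 CPM with hOMF exosomes, and 264, 269 and 266 CPM in controls. Every exosome library again lay above every control. The log2 fold change was 0.52 for CAF exosomes (SE 0.07, adjusted p = 0.000248, edgeR) and 0.36 for hOMF exosomes (SE 0.07, adjusted p = 0.00259), so the sum rose in both comparisons with control. The sum differed by 0.16 between CAF and hOMF exosomes (SE 0.07, adjusted p = 0.619, edgeR). In FPKM, the ratio of SAA1 to SAA2 was 18.4 ± 1.64 with CAF exosomes, 18.6 ± 1.22 with hOMF exosomes and 19.9 ± 2.12 in controls (SD, n = 3 each).

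C1R, the protease that activates C1s, had 341, 311 and 339 CPM in CAF exosome libraries, 289, 278 and 270 CPM in hOMF exosome libraries and 298, 267 and 245 CPM in controls. The 3 CAF libraries were above all 6 others, and the hOMF and control ranges overlapped. Its log2 fold change was 0.29 with CAF exosomes against control (SE 0.08, adjusted p = 0.0172, edgeR). With hOMF exosomes it was 0.05 against control, with a 95% interval of -0.12 to 0.21. Between CAF and hOMF exosomes it was 0.24 (95% interval 0.08 to 0.41, unadjusted p = 0.00628, adjusted p = 0.439, edgeR), short of the threshold.

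C1S, the protease that C1r activates and that cleaves C4 and C2, had 240, 213 and 220 CPM with CAF exosomes, 193, 202 and 197 CPM with hOMF exosomes and 207, 173 and 158 CPM in controls. The CAF libraries were again above all others, and control replicate 1 lay above all 3 hOMF libraries. The log2 fold change was 0.32 with CAF exosomes against control (SE 0.09, adjusted p = 0.0187, edgeR), and 0.14 with hOMF exosomes, with a 95% interval of -0.05 to 0.33. The value for CAF against hOMF exosomes was 0.18 (95% interval 0 to 0.37, adjusted p = 0.662, edgeR). The FPKM ratio of C1R to C1S averaged 1.64 ± 0.0675 with CAF exosomes, 1.58 ± 0.0835 with hOMF exosomes and 1.69 ± 0.0704 in controls (SD, n = 3 each).

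The C1R and C1S calls rested on several single libraries. The adjusted p of C1R was 0.0535 without CAF replicate 1, 0.0615 without CAF replicate 3, 0.0633 without control replicate 2 and 0.0777 without control replicate 3 (edgeR). That of C1S was 0.07 without CAF replicate 1, 0.0777 without control replicate 2 and 0.0847 without control replicate 3. Control replicate 1 was the highest control and replicate 3 the lowest for both genes and for CFI, CD55 and CD59, 5 of the 9 members. SAA1 and SAA2 kept their calls against control whichever library was left out. Without control replicate 3, the log2 fold change with CAF exosomes was 0.49 for SAA1 (adjusted p = 0.00169, edgeR), 0.69 for SAA2 (adjusted p = 0.0014), 0.23 for C1R and 0.24 for C1S. With hOMF exosomes it was 0.32 for SAA1 (adjusted p = 0.0151, edgeR) and 0.56 for SAA2 (adjusted p = 0.00378).

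CFB encodes factor B. It had 333, 309 and 334 CPM in CAF exosome libraries, 266, 255 and 266 CPM in hOMF exosome libraries, and 325, 342 and 307 CPM in controls. The 3 hOMF libraries were below all 6 others, and the CAF and control ranges overlapped. With hOMF exosomes CFB fell by 0.31 on the log2 scale against control (SE 0.07, adjusted p = 0.00492, edgeR), to 0.809 of the control level. Without control replicate 3 it fell by 0.34 (adjusted p = 0.00531, edgeR). With CAF exosomes its log2 fold change was 0 against control, with a 95% interval of -0.14 to 0.15.

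In the direct comparison of CAF with hOMF exosomes, CFB had a log2 fold change of 0.31 (SE 0.07, 95% interval 0.16 to 0.45). The unadjusted p was 0.000338 and the adjusted p 0.197 by edgeR's quasi-likelihood test, so the difference was not called. DESeq2 called it, with an adjusted p of 0.00273. The other 20 of 21 alternative settings left it uncalled, and over all 21 the log2 fold change lay between 0.28 and 0.34.

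C3 had 2254, 1916 and 2238 CPM with CAF exosomes, 1997, 1995 and 1980 CPM with hOMF exosomes and 2281, 2307 and 2056 CPM in controls. The hOMF libraries were below all 3 controls and the CAF libraries spread across both groups. Neither difference was called: the log2 fold change was -0.05 with CAF exosomes (95% interval -0.21 to 0.11) and -0.15 with hOMF exosomes (95% interval -0.32 to 0.01, adjusted p = 0.156, edgeR). CAF exosomes against hOMF exosomes gave 0.1 (95% interval -0.06 to 0.26).

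CD55 speeds the decay of the enzymes that cleave C3. It had 119, 110 and 114 CPM with CAF exosomes, 97.9, 104 and 104 CPM with hOMF exosomes and 119, 107 and 102 CPM in controls. Its control libraries spanned nearly the whole range of the other groups. The log2 fold change was 0.06 with CAF exosomes (95% interval -0.09 to 0.22) and -0.1 with hOMF exosomes (95% interval -0.26 to 0.05) against control. The CAF libraries were above the hOMF libraries, by 0.16 (95% interval 0.01 to 0.32, adjusted p = 0.623, edgeR).

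CD59 blocks assembly of the membrane attack complex. It had 488, 419 and 395 CPM with CAF exosomes, 396, 388 and 386 CPM with hOMF exosomes and 451, 427 and 373 CPM in controls, and all 3 ranges overlapped. The log2 fold change was 0.06 with CAF exosomes (95% interval -0.13 to 0.24) and -0.1 with hOMF exosomes (95% interval -0.28 to 0.09) against control, and 0.15 with CAF against hOMF exosomes (95% interval -0.03 to 0.34).

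CFI was near the detection limit, with 7, 13 and 13 counts in CAF exosome libraries, 19, 15 and 14 in hOMF exosome libraries and 8, 8 and 7 in controls. These counts are 0.624, 1.11 and 1.08 CPM with CAF exosomes, 1.65, 1.31 and 1.07 CPM with hOMF exosomes and 0.727, 0.723 and 0.558 CPM in controls. The hOMF libraries were above the controls, and the CAF range reached into the control range. CFI passed the filter on low counts (0.874 CPM in at least 3 libraries) through 2 CAF and 3 hOMF libraries and 0 controls. Its log2 fold change was 0.5 with CAF exosomes (95% interval -0.3 to 1.29) and 0.99 with hOMF exosomes (95% interval 0.25 to 1.74, adjusted p = 0.0523, edgeR), neither called. For CAF against hOMF exosomes it was -0.5 (95% interval -1.2 to 0.2). The hOMF difference was called under 6 of 21 alternatives, and over all 21 its adjusted p ranged from 0.00952 to 0.177.

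**Figure D2:**
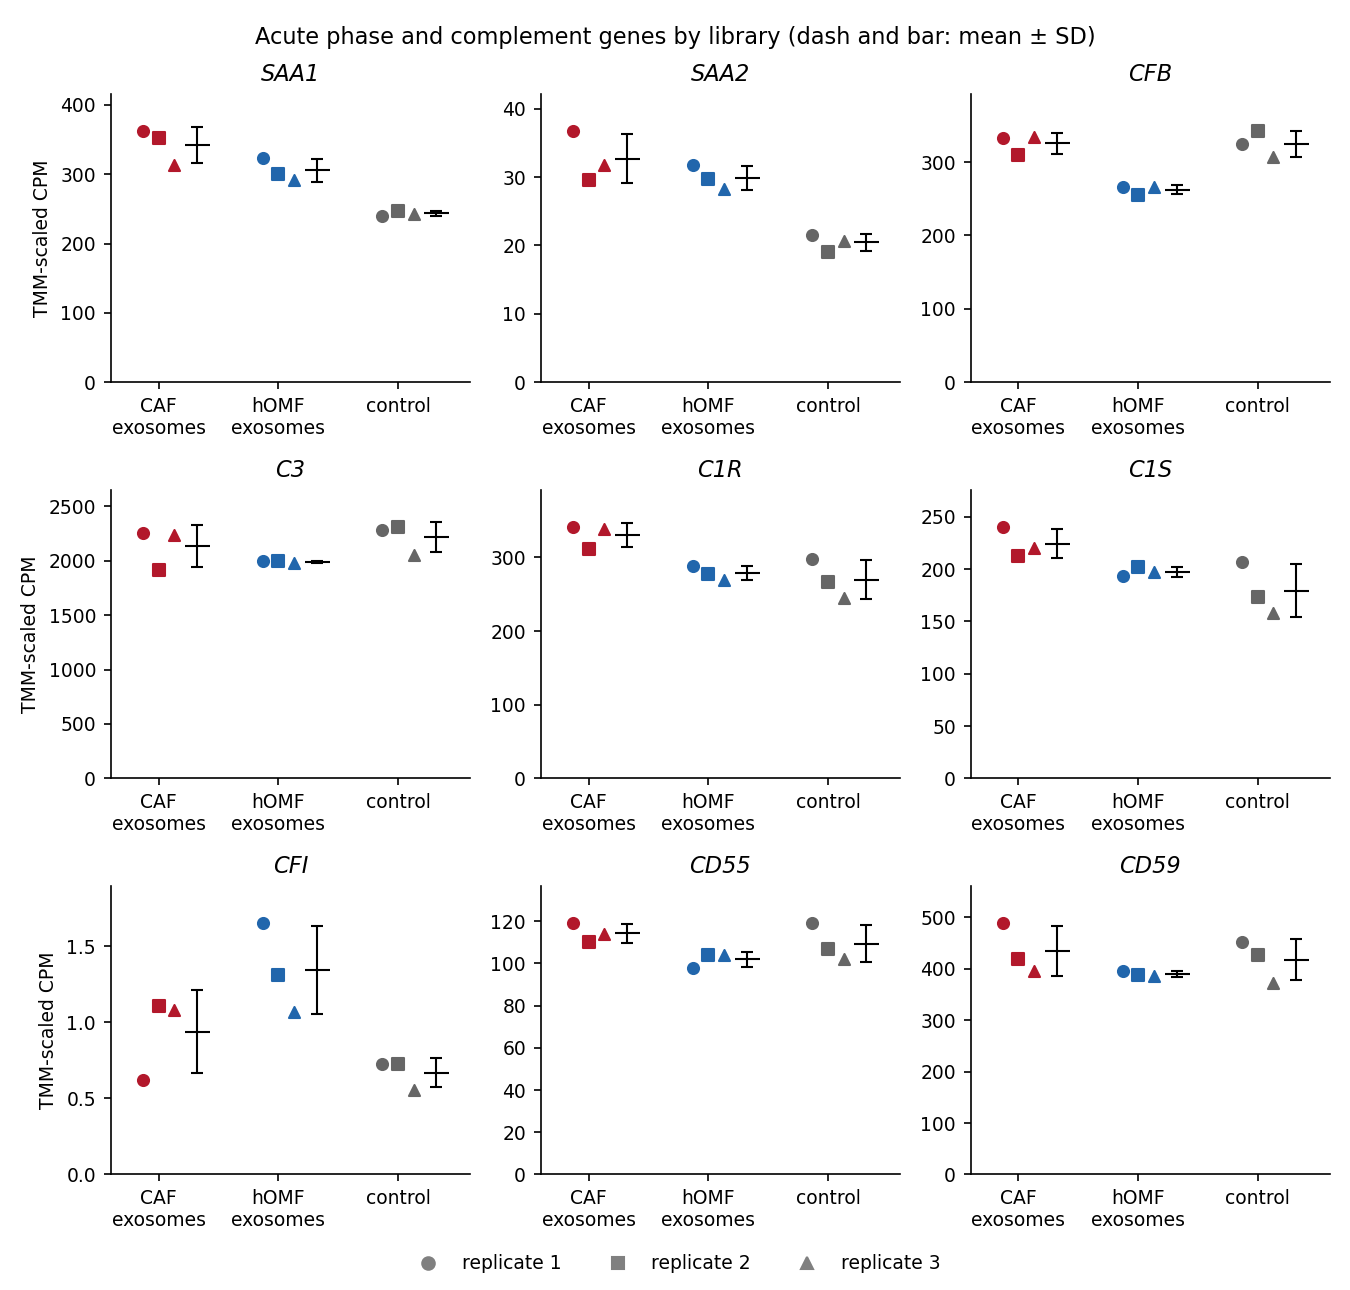
Level of each of the 9 members in TMM-scaled CPM, 1 point per library, for CAF exosomes, hOMF exosomes and control (3 libraries each). SAA1 and SAA2 are higher in all 6 exosome libraries than in all controls, CFB is lower in the 3 hOMF libraries (255 to 266) than in the other 6, and C1R and C1S are highest in the 3 CAF libraries.

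Counted over the members, 4 of 9 rose and 0 fell with CAF exosomes against control, where 18.2% of all 12470 tested genes were called (9.51% higher and 8.64% lower). With hOMF exosomes 2 of 9 rose and 1 fell, where 23.2% of all genes were called (11.8% higher and 11.4% lower). SAA1 and SAA2, whose division of reads is uncertain, count as 2 of the members that rose in each comparison with control. Between CAF and hOMF exosomes 0 of 9 were called, where 2 genes in all (0.0160%) were, 1 higher (0.00802%) and 1 lower (0.00802%). At an unadjusted p under 0.05 there were 4 members in that comparison (SAA1, CFB, C1R and CD55) among 947 genes (7.59%). DESeq2 called 1 member there, among 32 called genes of the 12470 fitted.

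Groups did not overlap for 4 members with CAF exosomes against control, all higher, where this held for 36.2% of all genes (18.0% higher). Against control, hOMF exosome libraries did not overlap for 5 members, 3 higher and 2 lower, where it held for 39.5% of genes (20.2% higher and 19.3% lower). CFI was 1 of the 3 higher ones and passed the filter through exosome libraries, and without it there were 4 members, 2 higher and 2 lower. Between CAF and hOMF exosomes it held for 4 members (CFB, C1R, C1S and CD55), all higher with CAF exosomes, and for 13.7% of all genes (7.15% higher).

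The median log2 fold change of the 9 members was 0.29 with CAF exosomes against control, 0.05 with hOMF exosomes against control and 0.16 between CAF and hOMF exosomes. The medians over all tested genes were -0.01, 0 and 0 in the same order. Without CFI, which entered through the exosome libraries, the members' medians were 0.18, -0.02 and 0.16.

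**Figure D3:**
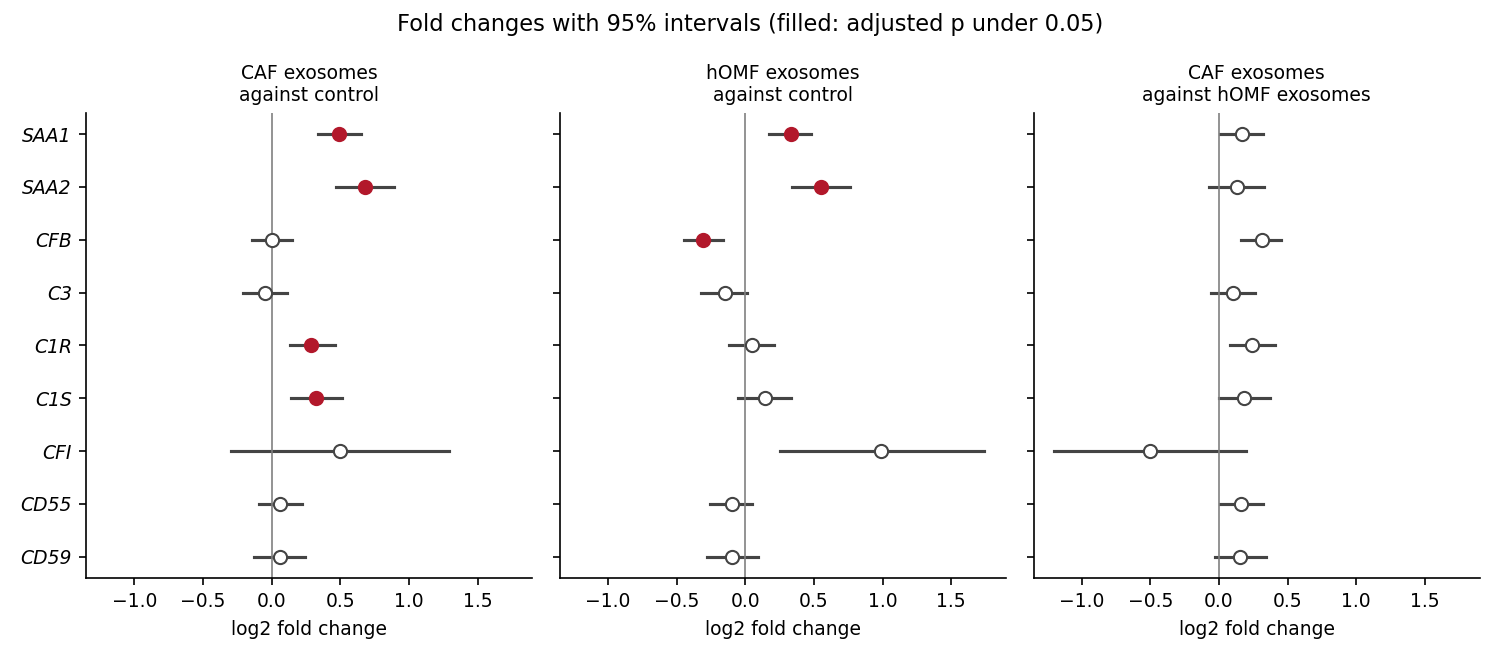
Log2 fold change with its 95% interval for each of the 9 members in the 3 comparisons, filled where the adjusted p was under 0.05. SAA1 and SAA2 lie above 0 in both comparisons with control, C1R (0.29) and C1S (0.32) are filled with CAF exosomes against control, CFB (-0.31) is filled with hOMF exosomes, and no point is filled between CAF and hOMF exosomes.

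**Figure D4:**
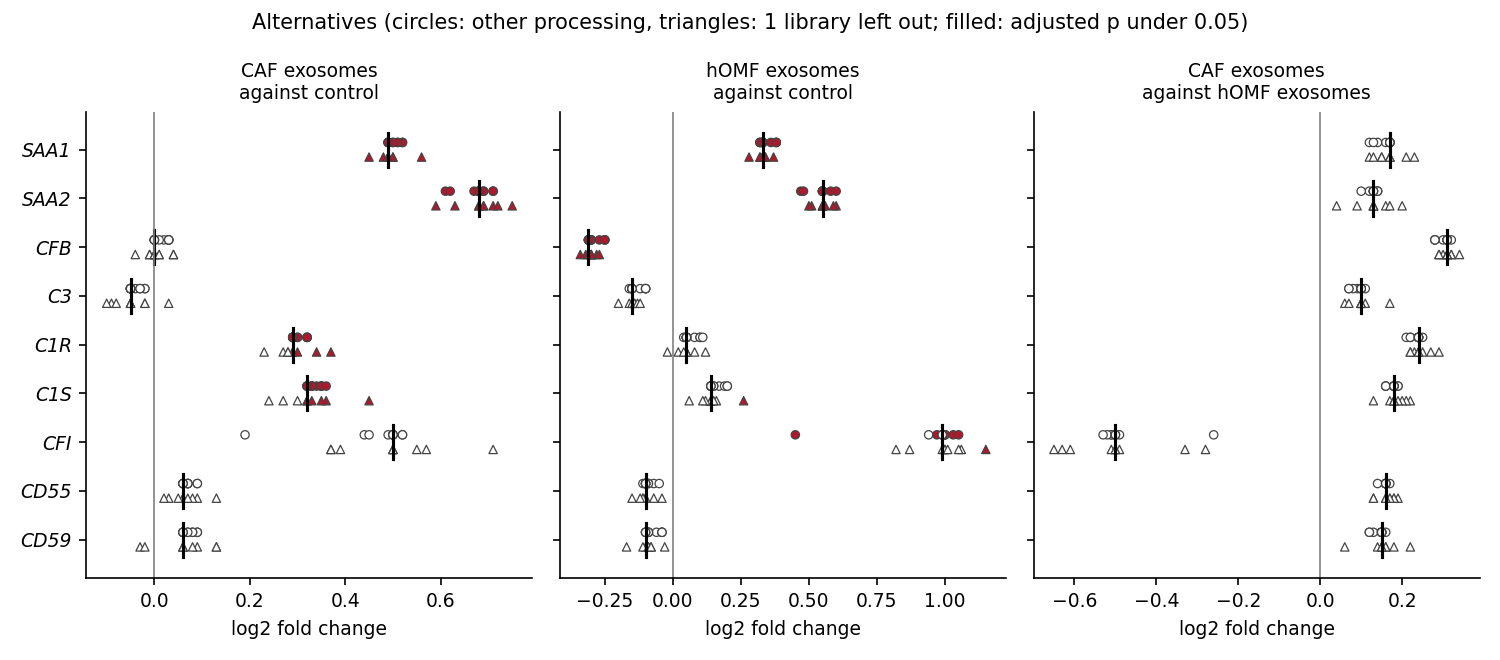
Log2 fold change of each member under the alternative settings, with a bar at the value reported, circles for other processing, triangles for 1 library left out and filled symbols for an adjusted p under 0.05. SAA1 and SAA2 stay filled in both comparisons with control, CFB stays filled with hOMF exosomes at -0.34 to -0.25, and triangles without fill appear for C1R and C1S with CAF exosomes.

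Other genes of the same systems came from lists chosen with earlier results known. Of 28 other acute phase genes, 18 were in the table and 12 were tested. With CAF exosomes 2 rose and 0 fell (median log2 fold change 0.15), and with hOMF exosomes 2 rose and 1 fell (median 0.16). These 2 and 3 calls among 12 genes stand beside 18.2% and 23.2% of all tested genes called in the same comparisons. SAA2-SAA4 rose by 1.78 with CAF exosomes (SE 0.33, adjusted p = 0.00205, edgeR) and by 1.45 with hOMF exosomes (SE 0.34, adjusted p = 0.00624) on the log2 scale, from reads that it shares with SAA2 and SAA4. Its levels were low, at 4.46, 5.79 and 3.25 CPM with CAF exosomes, 2.43, 3.85 and 4.43 CPM with hOMF exosomes and 2, 0.813 and 1.12 CPM in controls.

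LRG1, a secreted leucine-rich acute phase glycoprotein, averaged 103 ± 2.33 CPM with CAF exosomes, 96.5 ± 10.6 CPM with hOMF exosomes and 79.8 ± 4.68 CPM in controls (SD, n = 3 each). It rose in both comparisons with control, by 0.37 (SE 0.08, adjusted p = 0.00614, edgeR) with CAF exosomes and 0.27 (SE 0.08, adjusted p = 0.0261) with hOMF exosomes on the log2 scale. The hOMF call was lost without hOMF replicate 1 or 2 or control replicate 1 or 2. SERPINA1, which encodes alpha-1-antitrypsin, fell with hOMF exosomes, to 184 ± 6.76 CPM against 215 ± 3.36 CPM in controls (log2 fold change -0.22, SE 0.06, adjusted p = 0.0196, edgeR). It lost that call under 5 of 21 alternatives, 2 of them without hOMF replicate 2 and without control replicate 1.

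Of 48 other complement genes, 33 were in the table and 18 were tested. With CAF exosomes 3 rose and 1 fell (median log2 fold change 0.32), and with hOMF exosomes 3 rose and 2 fell (median 0.19). Of all tested genes 18.2% were called with CAF exosomes and 23.2% with hOMF exosomes, and their medians were -0.01 and 0. The medians of the list include SUSD4, whose controls (0.727, 0.452 and 0.319 CPM) lay below the filter cutoff of 0.874 CPM. They also include C4A and C4B, whose division of counts jumped between libraries. C1RL, a C1r-like protease gene whose exons overlap C1R, averaged 133 ± 5.91 CPM with CAF exosomes against 104 ± 7.49 CPM in controls and rose by 0.34 (SE 0.07, adjusted p = 0.00538, edgeR). CLU, which encodes the secreted chaperone clusterin, an inhibitor of the membrane attack complex, averaged 48.6 ± 2.05 CPM with CAF exosomes, 48.6 ± 1.31 CPM with hOMF exosomes and 39.4 ± 4.16 CPM in controls (SD, n = 3 each). CLU rose by 0.30 with CAF exosomes (SE 0.08, adjusted p = 0.0213, edgeR) and by 0.30 with hOMF exosomes (SE 0.08, adjusted p = 0.0172). The first of these calls was lost without CAF replicate 2 or 3 or control replicate 1 or 2, and the second without control replicate 1.

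COLEC12, a scavenger receptor of the collectin family, fell by 0.87 with CAF exosomes, to 1.42 ± 0.323 CPM against 2.62 ± 0.147 CPM in controls (adjusted p = 0.0289, edgeR), and lost the call under 9 of 21 alternatives, among them those without CAF replicate 1, CAF replicate 3 or any 1 of the 3 controls. ITGAM, a subunit of complement receptor 3, fell by 0.98 with hOMF exosomes, to 1.62 ± 0.396 CPM against 3.23 ± 0.0633 CPM in controls (adjusted p = 0.00789, edgeR). C5, the precursor of the C5a peptide, rose by 0.94 with hOMF exosomes, to 2.1 ± 0.157 CPM against 1.08 ± 0.459 CPM in controls (adjusted p = 0.0434, edgeR), and lost the call under 10 of 21 alternatives, among them those without any 1 of the 3 hOMF libraries or without control replicate 1 or 2. C1QBP, which binds the globular heads of C1q, had 106 ± 5.83 CPM with hOMF exosomes against 128 ± 16.1 CPM in controls (log2 fold change -0.27, adjusted p = 0.0491, edgeR), and lost the call under 13 of 21, among them those without any 1 of the 3 hOMF libraries or without control replicate 2 or 3. It was named after its values were seen.

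Genes listed as cytokines, receptors and factors of the acute phase response were called lower more often than higher. The list also holds inhibitors of these signals. Among them TNFAIP3 and NFKBIA were called lower in both comparisons with control. Of 38 listed genes, 34 were tested, and with CAF exosomes 3 rose and 11 fell (median log2 fold change -0.14), and with hOMF exosomes 1 rose and 11 fell (median -0.14). Among all tested genes 9.51% rose and 8.64% fell with CAF exosomes, and 11.8% rose and 11.4% fell with hOMF exosomes. IL6 had 3.14 ± 0.755 CPM with CAF exosomes, 3.35 ± 0.187 CPM with hOMF exosomes and 9.54 ± 0.728 CPM in controls (SD, n = 3 each). It fell by 1.60 with CAF exosomes (SE 0.18, adjusted p = 4.98e-05, edgeR) and by 1.51 with hOMF exosomes (SE 0.18, adjusted p = 3.9e-05) on the log2 scale. IL1B averaged 442 ± 15.8 CPM with CAF exosomes, 447 ± 5.87 CPM with hOMF exosomes and 592 ± 77.8 CPM in controls, and fell by 0.42 with CAF exosomes (adjusted p = 0.00332, edgeR) and by 0.41 with hOMF exosomes (adjusted p = 0.00285).

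NFKBIZ, a nuclear cofactor of NF-kB, averaged 36.8 ± 4.36 CPM with CAF exosomes, 32.6 ± 2.61 CPM with hOMF exosomes and 51 ± 3.93 CPM in controls. It fell by 0.47 with CAF exosomes (adjusted p = 0.00405, edgeR) and by 0.64 with hOMF exosomes (adjusted p = 0.000305). TNFAIP3, an NF-kB target that encodes its feedback inhibitor A20, averaged 227 ± 18.4 CPM with CAF exosomes, 197 ± 1.76 CPM with hOMF exosomes and 283 ± 5.73 CPM in controls. It fell by 0.32 with CAF exosomes (adjusted p = 0.00619, edgeR) and by 0.52 with hOMF exosomes (adjusted p = 0.00012). TNF, the gene of tumour necrosis factor, averaged 30.3 ± 3.09 CPM with CAF exosomes, 25.8 ± 1.76 CPM with hOMF exosomes and 40.4 ± 4.82 CPM in controls. It fell by 0.42 with CAF exosomes (SE 0.10, adjusted p = 0.0106, edgeR) and by 0.65 with hOMF exosomes (SE 0.10, adjusted p = 0.000404), the CAF call being lost without CAF replicate 3 or control replicate 3. The few genes called higher in this list, picked with their values in view, were LIFR (0.45), TNFRSF1A (0.31) and IFNGR1 (0.23) with CAF exosomes and LIFR (0.63) with hOMF exosomes, all encoding cytokine receptors. The other tested cytokine receptor genes of the list, IL6R, IL6ST, OSMR, IL1R1, IL1RAP and IL17RA, were not called in either comparison with control.

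**Figure D5:**
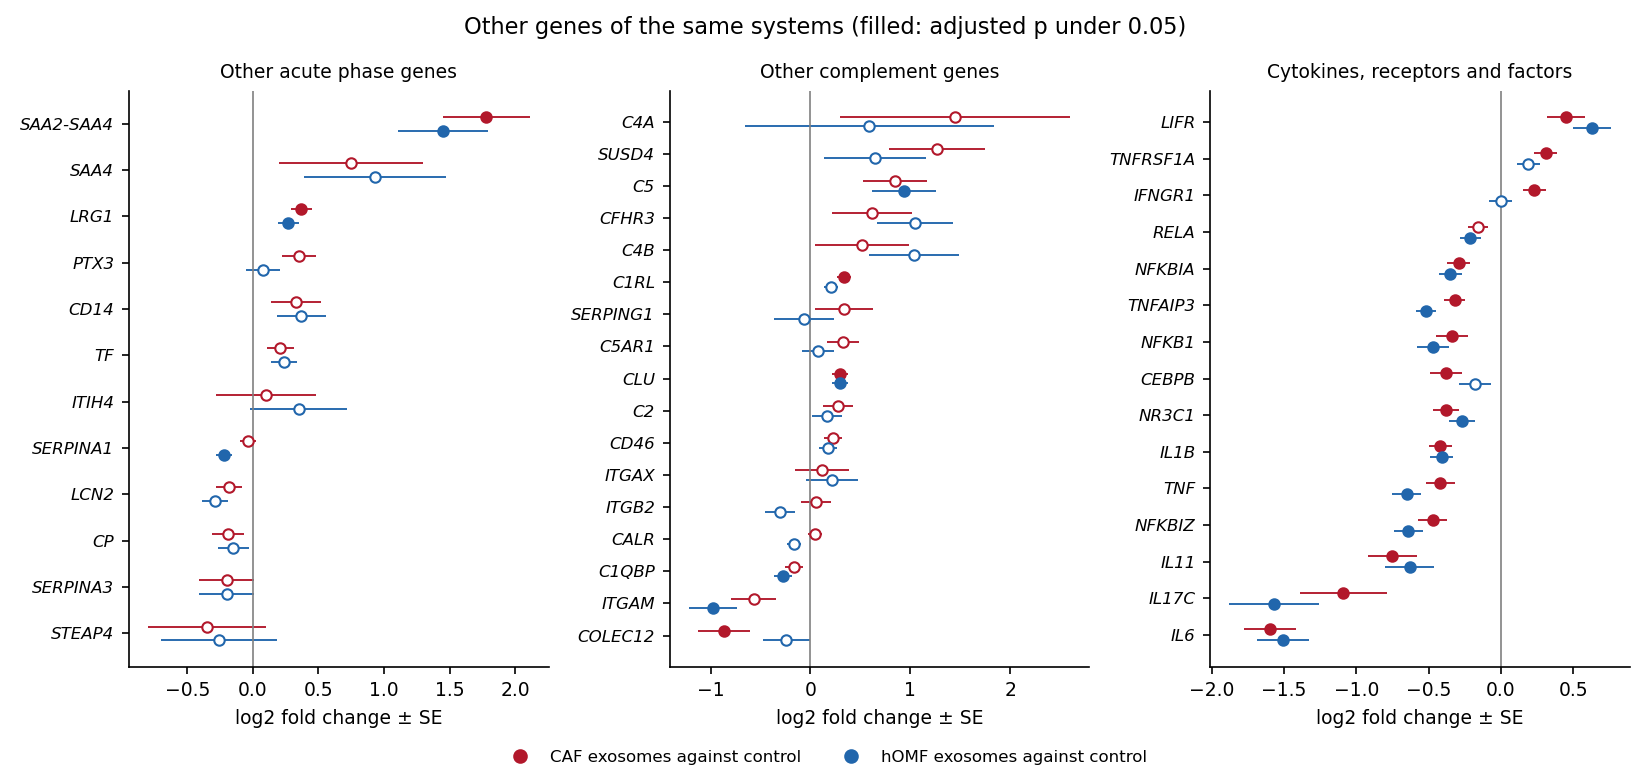
Log2 fold change ± SE against control of other acute phase genes, other complement genes, and those cytokines, receptors and factors that were called in at least 1 comparison (red, CAF exosomes; blue, hOMF exosomes; filled where the adjusted p was under 0.05). LRG1 and CLU are filled to the right of 0 in both comparisons, and IL6 lies to the left of 0 in both, at -1.60 with CAF exosomes and -1.51 with hOMF exosomes.

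Markers of other cell types and of squamous cells were summed in FPKM beside these results. The fibroblast list (9 of 10 genes in the table) summed to 10.3 to 10.6 with CAF exosomes, 9.89 to 11.5 with hOMF exosomes and 7.50 to 8.49 in controls, higher in exosome libraries as SAA1 and SAA2 were. Of its 4 tested genes, LUM was called higher in both comparisons with control. COL1A1, which encodes a chain of type I collagen, made up 77.9% to 85.6% of the sum. It averaged 8.37 ± 0.286 FPKM with CAF exosomes, 8.39 ± 1.04 FPKM with hOMF exosomes and 6.86 ± 0.562 FPKM in controls (SD, n = 3 each), and was higher in all 6 exosome libraries than in all controls. It was not called with CAF exosomes (adjusted p = 0.138, edgeR) or hOMF exosomes (adjusted p = 0.124). Of the other genes, 5 were near 0, with 2 counts of COL3A1, 3 of DCN, 3 of FAP, 6 of THY1 and 1 of POSTN over all 9 libraries. The squamous list (8 of 8) summed to 3440 to 3627 with CAF exosomes, 2886 to 3453 with hOMF exosomes and 2222 to 2991 in controls, most of it KRT17 and KRT5. KRT5, KRT14, KRT6A and KRT17 were called higher with CAF exosomes, and KRT5 and KRT14 with hOMF exosomes. TP63, EPCAM, CDH1 and DSG3 were not called in either comparison with control. The part of the fibroblast and squamous lists in the members' differences was not tested.

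The endothelial list (3 of 4) summed to 4.17 to 4.91 with CAF exosomes, 4.45 to 5.22 with hOMF exosomes and 5.33 to 7.70 in controls. CDH5 made up most of it, at mean FPKM of 3.93, 4.1 and 6.22 in the same order, and was called lower in both comparisons with control. PECAM1 (0.2, 0.31 and 0.423) and VWF, which went the other way (0.323, 0.32 and 0.193), were not called. The PECAM1 controls had 0.24, 0.23 and 0.8 FPKM, the last being control replicate 3, against 0.36, 0.32 and 0.25 FPKM with hOMF exosomes. The part of this list in the members' differences was not tested either. The leukocyte list (6 of 8) overlapped between groups, at 29.9 to 34.0, 29.4 to 32.1 and 28.1 to 33.7 FPKM for CAF exosomes, hOMF exosomes and control, and CD68 made up most of it. PTPRC and LYZ, at low levels, were highest in control replicate 3, the lowest control for 7 of the 9 members, and their part in the members' differences was not tested. The hepatocyte list (4 of 6), the cell type that makes most circulating serum amyloid A, summed to at most 0.42 FPKM in any library, with 2 counts of ALB over all 9.

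Genes whose levels followed a member most closely were ranked by the root mean square difference of log2 levels, each centred on its own mean, over the 9 libraries among 11330 genes with a mean FPKM of at least 1. Nearest to SAA1 were EMP2 (0.0402), HLA-DRA (0.0466) and TMEM14C (0.0539), where SAA1 itself varied by 0.213 around its mean. Nearest to SAA2 (0.307) were NBPF8 (0.0716), RABL2A (0.0722) and HEMK1 (0.078). Those near to CFB (0.153) included SCARB1 (0.0477) and TM9SF1 (0.0556). For C1R (0.151) they were TPCN2 (0.037), TM7SF2 (0.0451) and MICALCL (0.0538), and for C1S (0.17) TMED10 (0.0502), SGPL1 (0.051) and SLC35B3 (0.0554). The members themselves were left out of the candidates, so the ranking does not show how closely members followed each other. The libraries share their group, so this order is a description and carries no test.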

How the data were processed

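Poly(A) RNA of 9 Cal-27 libraries was sequenced. The authors deposited 1 table with expected counts and FPKM for each library, per the file headers, which name each library. RSEM 1.2.8 and Bowtie2 2.2.5 are named in the submitters' processing notes, so the deposited expected counts are estimates that share reads between similar genes. Those notes also name a mouse build, although 16257 of 16366 gene identifiers match human RefSeq. Build, annotation and strandedness of the counting are therefore uncertain, and coordinates come from GENCODE 29 (GRCh38) or RefSeq (GRCh38.p14).

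Expected counts summed to 11185672 to 12779101 per library. Of the gene values of a library, zeros included, 90.5% to 92.0% were whole within 0.001 (89.5% to 90.8% of those above 0), and all were rounded to whole numbers. filterByExpr of edgeR 4.0.16 (minimum count 10, minimum total 15) kept 12470 genes. After TMM scaling, edgeR's two-sided quasi-likelihood test was fitted to all 9 libraries by group (6 residual degrees of freedom), with Benjamini-Hochberg adjustment over genes, a threshold of 0.05 and 95% intervals. SE values come from the log2 fold change and the square root of F. The script was tested on simulated data. Alternatives used DESeq2 1.42.0, limma 3.58.1 on counts or on log2 of the deposited FPKM, other scalings and filters, and each library left out. R 4.3.3 and python 3.11.15 were used.

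Members and gene lists were chosen with earlier results of these data known. Every member is named. Of each list, called genes were named up to the 4 with the smallest p in a comparison, apart from C1QBP, LIFR, TNFRSF1A and IFNGR1, and some genes that meet the rule are not reported here. Replicate numbers were checked for pairing: 1 of 9 same-numbered pairs had a correlation of deviations over 0.1 (range -0.15 to 0.14). The reported fit therefore did not pair libraries, but with 3 libraries per group the check cannot exclude pairing.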

Additional observations from a re-analysis of the deposited data

How the results depend on the processing

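Of 560 values of the members under 21 alternatives, 538 kept their direction and side of the threshold, 7 lost a call, 8 gained one and 7 changed sign without being called, and the cause was not tested. The sign changes, all with 1 library left out, were CFB with CAF exosomes (-0.01 without CAF replicate 1, -0.01 without CAF replicate 3, -0.04 without control replicate 3), CD59 with CAF exosomes (-0.03 without CAF replicate 1, -0.02 without control replicate 3), C3 with CAF exosomes (0.03 without CAF replicate 2) and C1R with hOMF exosomes (-0.02 without control replicate 3). With 1 library left out these values spanned -0.04 to 0.04, -0.03 to 0.13, -0.1 to 0.03 and -0.02 to 0.12 in the same order. Leaving out 1 library, 2 to 4 members were called with CAF exosomes against control, 3 to 4 with hOMF exosomes and 0 between CAF and hOMF exosomes. With CAF exosomes 2 members were called without CAF replicate 1, control replicate 2 or control replicate 3, and 3 without CAF replicate 3. C1S was called with hOMF exosomes without control replicate 1 (log2 fold change 0.26, adjusted p = 0.0336, edgeR). Genes called then ranged from 1343 to 2389 with CAF exosomes, from 1695 to 3096 with hOMF exosomes and from 0 to 8 between them. Between CAF and hOMF exosomes DESeq2 called 32 genes, CFB the 1 member among them, and 0 were called with library totals, with limma-voom, with limma on log2(FPKM + 1) or log2(FPKM + 0.1), or with only these groups fitted. Higher calls were 52.4% of all calls with CAF exosomes against control, and 62.4% with upper-quartile scaling, 63.1% with library totals and 64.0% and 64.5% with limma on FPKM. With hOMF exosomes they were 50.9%, and 61.7%, 67.0%, 68.7% and 69.0% in the same order. The check of replicate numbers gave no clear pairing, so the fit with replicate number as a block stands here only. It called 2101, 2718 and 2 genes and 4, 3 and 0 members. Depth limits CFI, with 19 counts at most in a library, and the division of reads limits SAA1 and SAA2 one by one.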

Other observations

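CFD, which encodes factor D, the protease that cleaves factor B, was low in all but 1 library. It had 7, 6 and 9 counts in CAF exosome libraries, 3, 8 and 5 in hOMF exosome libraries and 8, 8 and 88 in controls, the last being control replicate 3 at 7.02 CPM against at most 0.751 CPM in any other library. The same library was highest, in FPKM, for PTPRC (1.67 against at most 0.02 elsewhere), LYZ (2.32 against at most 0.46), PECAM1 (0.8 against at most 0.36) and CEBPA (17.12 against at most 4.69).

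C4A and C4B, the near-identical genes of complement C4, had fractional counts whose division jumped between libraries. C4A had 7.7, 78.93 and 2.17 expected counts with CAF exosomes, 0, 0 and 51.94 with hOMF exosomes and 0, 21.05 and 10.62 in controls. The sum of the C4A and C4B counts was 46.49, 93.8 and 53.02 with CAF exosomes, 69.89, 61.02 and 74.49 with hOMF exosomes and 24.96, 33.45 and 46.36 in controls; these are counts not scaled for depth.

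LCN2, which encodes the siderophore-binding protein lipocalin 2, averaged more FPKM than SAA1 in each group, at 1672 ± 133 with CAF exosomes, 1577 ± 118 with hOMF exosomes and 1861 ± 303 in controls (SD, n = 3 each). It had 844, 992 and 917 CPM with CAF exosomes, 924, 837 and 779 CPM with hOMF exosomes and 848, 1169 and 1096 CPM in controls, and was not called against control with CAF exosomes (adjusted p = 0.252, edgeR) or with hOMF exosomes (adjusted p = 0.0524).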
